A study of Homo sapiens with 8 samples.

Results

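The glutathione peroxidases GPX1 to GPX8 are 8 genes of the 58206 in the count table, and 5 of them (GPX1, GPX2, GPX3, GPX4 and GPX8) were among the 14289 genes that passed the expression filter. The family was chosen by its name, with the counts of GPX8 and its relatives in these same libraries already known. The difference between the groups is therefore described for the members and not tested.

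RNA was sequenced from Alexander1, an established human hepatocellular carcinoma line. The parental group, labelled wt (Axin1 -), had 4 libraries. In these cells Axin1 lacks the region that binds GSK3, and Wnt signalling is on without a signal from outside. The other 4 libraries, labelled Axin1 +, came from a derivative in which full-length Axin1 was introduced stably with a VSVG retrovirus and an Addgene plasmid, followed by clonal selection with hygromycin B. The labels give neither the number of clones nor an empty-vector line, so restored Axin1, viral transfer, drug selection and clonal origin cannot be told apart. Nothing says that the replicates came from separate cultures, so SDs and p-values measure the spread between these libraries, which may be technical. AXIN1 mRNA was 52.4 ± 3.49 CPM (counts per 1e6 counts of the scaled library; SD, n = 4) in the parental libraries and 45.4 ± 5.13 CPM (SD, n = 4) in the others. Its log2 fold change was -0.21 (SE 0.12, edgeR adjusted p = 0.267). Counts of this gene include both the endogenous and any introduced transcript that aligned to it. Since the transcript did not show the labelled difference, the second group is called restored-labelled throughout.

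Total counts ran from 11232951 to 15263761 in the parental libraries and from 12372436 to 26400782 in the restored-labelled ones, so that 3 counts correspond to 0.108 to 0.267 CPM. The first principal component of all tested genes held 55.9% of the variance and placed the parental libraries between -46.7 and -42.6. Restored-labelled replicate 1 stood apart at 22.2, against 48.7 to 56.8 for the other 3. All 11 hepatocyte markers were above the filter, and their summed level was 27772 to 32264 CPM in the parental and 21990 to 26141 CPM in the restored-labelled libraries. Of these, TTR and FGB rose and SERPINA1 and TF fell. SERPINA1 was the largest part of the sum in both groups, with means of 16130 and 10358 CPM, and FGB went from 768 to 3175 CPM. The other hepatocyte markers did not pass, among them ALB, which ran from 13.8 to 681 CPM within the restored-labelled libraries. TTR lost the call without parental replicate 3 or without restored-labelled replicate 2, 3 or 4, and SERPINA1 without parental replicate 2 or restored-labelled replicate 3 or 4. Among 8 markers of blood, endothelial and stromal cells, 3 passed the filter. PTPRC and COL1A2 had no more than 3 counts in any library. The summed level of the 8 was 7.65 to 9.53 CPM against 38.7 to 60.6 CPM, most of it from the endothelial adhesion molecule PECAM1, described further on. The stromal receptor PDGFRB fell from 1.69 to 0.221 CPM (log2 fold change -2.87, edgeR adjusted p = 0.00454), and COL1A1 did not pass (adjusted p = 0.308).

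Glutathione peroxidases reduce hydrogen peroxide and organic hydroperoxides to water and alcohols, and most of them take the electrons from glutathione. In several members the catalytic residue is selenocysteine, which is inserted at a UGA codon that would otherwise end translation. Others carry an ordinary cysteine, react slowly with glutathione, and can pass oxidising equivalents to protein disulfide isomerases. In liver, GPX1 is the abundant cytosolic enzyme and GPX4 is the member that acts on phospholipid hydroperoxides in membranes.

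The catalytic codon divides the family, so the 27 coding bases around it are shown for each member, read 5′ to 3′ on the coding strand from the GENCODE 29 transcripts of GRCh38, with the catalytic codon in capitals.
GPX1: aatgtggcgtccctcTGAggcaccacg
GPX2: aatgtggcttcgctcTGAggcacaacc
GPX3: aacgtggccagctacTGAggcctgacg
GPX4: aacgtggcctcccagTGAggcaagacc
GPX6: aatgtggccgcctatTGAggcttggca
GPX5: aacgtggccacctacTGTggtctgaca
GPX7: aatgtggccagcgagTGCggcttcaca
GPX8: aacgtggccagtgacTGCcaactcaca
The windows of GPX1 (chr3:49358123-49358149, minus strand), GPX2 (chr14:64942598-64942624, minus), GPX3 (chr5:151025454-151025480, plus), GPX4 (chr19:1105388-1105414, plus) and GPX6 (chr6:28510764-28510790, minus) hold TGA. The annotation marks each of these as a selenocysteine codon. Cysteine codons stand at the same place in GPX5 (chr6:28529565-28529591, plus), GPX7 (chr1:52606699-52606725, plus) and GPX8 (chr5:55161009-55161035, plus). Of the 5 TGA members, 4 passed the expression filter, and of the 3 cysteine members GPX8 alone did.

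GPX8 and GPX2 were the members with higher mRNA in the restored-labelled libraries, GPX1 was lower, and GPX3 and GPX4 had overlapping groups. The fit across all genes called 2738 of 14289 genes (19.2%) at an adjusted p under 0.05, 1485 higher (10.4%) and 1253 lower (8.77%). It called 3 of the 5 filtered members, GPX2 and GPX8 higher and GPX1 lower. The same 3 had groups without overlap, as did 23.9% of all tested genes. The members were picked with this contrast in view, so nothing is read from these counts. The median log2 fold change was 0.06 over the 5 members and 0.00 over all tested genes.

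**Figure D1:**
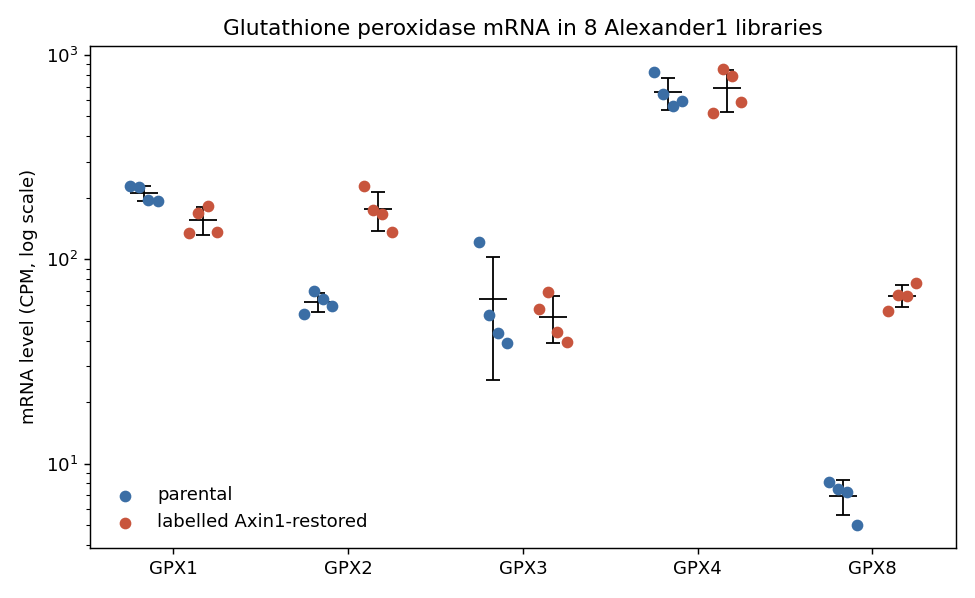
mRNA level (CPM, log scale) of the 5 members that passed the filter, in 4 parental and 4 restored-labelled libraries, with points for libraries and bars for mean and SD. GPX8 lies at 5.01 to 8.10 CPM against 56.0 to 76.2 CPM, and GPX2 at 54.0 to 69.9 CPM against 135.8 to 227.5 CPM.

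GPX8 encodes a peroxidase anchored in the membrane of the endoplasmic reticulum (ER), with its catalytic part in the lumen, where it can use peroxide made during disulfide bond formation. The gene (ENSG00000164294) lies at chr5:55160118-55167071 on the plus strand. In order of replicate number, the parental libraries held 8.10, 7.51, 7.22 and 5.01 CPM of it. The restored-labelled libraries held 56.0, 67.0, 66.3 and 76.2 CPM. Every restored-labelled library was above every parental one, and the lowest of them was far above the highest parental value. The raw counts behind these levels were 91, 111, 81 and 70 in the parental libraries and 1561, 811, 1345 and 1952 in the others. The means were 6.96 ± 1.35 and 66.4 ± 8.26 CPM (SD, n = 4 each), a ratio of 9.53, and the fitted log2 fold change was 3.25 (SE 0.18). Of the 14289 genes tested, 112, GPX8 included, had a log2 fold change at least this high. Leaving out restored-labelled replicate 1, which stood apart, gave 3.33.

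GPX2 encodes the cytosolic enzyme typical of the gut epithelium, and it has been described elsewhere as a target of both NRF2 and Wnt signalling. It lies at chr14:64939152-64942905 on the minus strand (ENSG00000176153). The 4 parental libraries, again by replicate number, were at 54.0, 69.9, 64.1 and 58.9 CPM, and those labelled Axin1 + at 227.5, 174.1, 166.2 and 135.8 CPM. The groups did not overlap, and restored-labelled replicate 1 was the highest library. The means were 61.7 ± 6.82 and 175.9 ± 38.1 CPM (SD, n = 4 each), a ratio of 2.85 and a log2 fold change of 1.51 (SE 0.16). Without restored-labelled replicate 1 it was 1.36. Counting GPX2 itself, 362 tested genes had a log2 fold change at least this high.

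GPX1, the cytosolic enzyme that removes most soluble hydroperoxides, lies at chr3:49357171-49358600 on the minus strand (ENSG00000233276). GENCODE 29 classes it as a polymorphic pseudogene. Its levels were 228.6, 224.5, 195.6 and 193.3 CPM in the parental libraries and 133.8, 168.8, 182.1 and 135.1 CPM in the restored-labelled ones. The lowest parental and the highest restored-labelled libraries were close, but the groups did not overlap. The means were 210.5 ± 18.6 and 155.0 ± 24.3 CPM (SD, n = 4 each), with a log2 fold change of -0.44 (SE 0.14). The sign was negative in all 16 alternative analyses of these same libraries, from -0.53 to -0.36. In 6 of the 16 GPX1 stayed past the threshold. The member was picked with this contrast in view, so nothing is read from that count. The processed pseudogene GPX1P1 had 1 to 7 counts per library and GPX1P2 had 0, so few counts were assigned to these copies.

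GPX4, the phospholipid hydroperoxide reductase that holds back ferroptosis, had the highest level of the family in every library. The gene (ENSG00000167468) is at chr19:1103926-1106791 on the plus strand. It measured 823.8, 645.1, 560.2 and 593.2 CPM in the parental libraries and 517.6, 855.3, 783.9 and 585.4 CPM in the restored-labelled ones. Both the lowest and the highest library were restored-labelled, so the groups overlapped fully. The log2 fold change was 0.06 (SE 0.19) and ran from -0.06 without restored-labelled replicate 2 to 0.19 without parental replicate 1.

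GPX3 encodes the secreted form found in plasma and lies at chr5:151020438-151028993 on the plus strand (ENSG00000211445). The parental libraries held 120.9, 53.1, 43.6 and 38.7 CPM and the restored-labelled ones 57.0, 69.3, 44.0 and 39.3 CPM. Parental replicate 1 was the highest library, and the other 7 overlapped. The log2 fold change of -0.29 (SE 0.33) rested on that library, since it became 0.21 without it. The coefficient of variation of GPX3 among parental libraries was 59.9%, against 8.85% to 19.4% for the other 4 members.

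The remaining members were at or under 3 counts in every library, so no fold change is given. GPX5, known from the epididymis, lies at chr6:28525925-28534952 (ENSG00000224586) and had 2 counts in restored-labelled replicate 4 and 0 elsewhere. GPX6, known from olfactory tissue, lies at chr6:28503296-28528215 (ENSG00000198704) and overlaps GPX5 on the opposite strand with no shared exonic base. GPX6 had 1 count in restored-labelled replicate 2 and 0 elsewhere. GPX7, the soluble relative of GPX8 in the ER, lies at chr1:52602372-52609051 (ENSG00000116157) and had 1 count in parental replicate 1 and 0 elsewhere. Within the ER branch of the family, GPX8 was thus the member with counts above that floor. At this depth, expression of GPX5, GPX6 and GPX7 was not detectable above 0.108 to 0.267 CPM per library. These limits cover counting error only.

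Levels were compared between members per kilobase of annotated exon. This length joins all annotated exons of a gene and need not be that of the transcript expressed. The order and shares below rest on it. GPX4 led in both groups, at 324.7 ± 58.2 CPM per kb in the parental and 339.5 ± 79.2 CPM per kb in the restored-labelled libraries (SD, n = 4 each), and exceeded GPX1 in all 8 libraries. GPX1 followed at 147.2 ± 13.0 CPM per kb in the parental group and 108.4 ± 16.97 CPM per kb in the restored-labelled group. GPX2 went from 41.2 ± 4.55 to 117.3 ± 25.4 CPM per kb. It was below GPX1 in every parental library and above it in 1 of the 4 restored-labelled libraries. In plain CPM GPX2 was above GPX1 in restored-labelled replicates 1, 2 and 4 and below it in replicate 3. In the restored-labelled group these neighbours thus did not differ beyond their spread. GPX8 went from 1.80 ± 0.349 to 17.2 ± 2.13 CPM per kb, beside GPX3 at 20.3 ± 12.1 and 16.6 ± 4.29 CPM per kb. GPX8 was below GPX3 in every parental library and above it in 2 of the 4 restored-labelled ones, where the pair did not differ beyond their spread either.

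The summed level of the family was 535 ± 79.0 CPM per kb in the parental and 599 ± 92.5 CPM per kb in the restored-labelled libraries (SD, n = 4 each), a difference within the spread. Without GPX2 and GPX8 the sums were 492 ± 81.0 and 465 ± 96.5 CPM per kb. The make-up of the sum differed more than its size. GPX1 made up 27.7% ± 1.97 of it in the parental and 18.1% ± 1.09 in the restored-labelled libraries (SD, n = 4 each). GPX2 made up 7.85% ± 1.55 and 19.9% ± 5.66, with 28.4% in restored-labelled replicate 1 and 16.7% to 17.9% in the other 3. These ranges did not overlap for either gene. GPX4 contributed 60.5% ± 2.14 and 56.2% ± 5.70, and its ratio to GPX1 was 2.20 ± 0.246 and 3.11 ± 0.352. GPX8 contributed 0.337% ± 0.0535 and 2.92% ± 0.649, so the cysteine member with the largest fold difference was a minor share of the family mRNA in both groups.

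**Figure D2:**
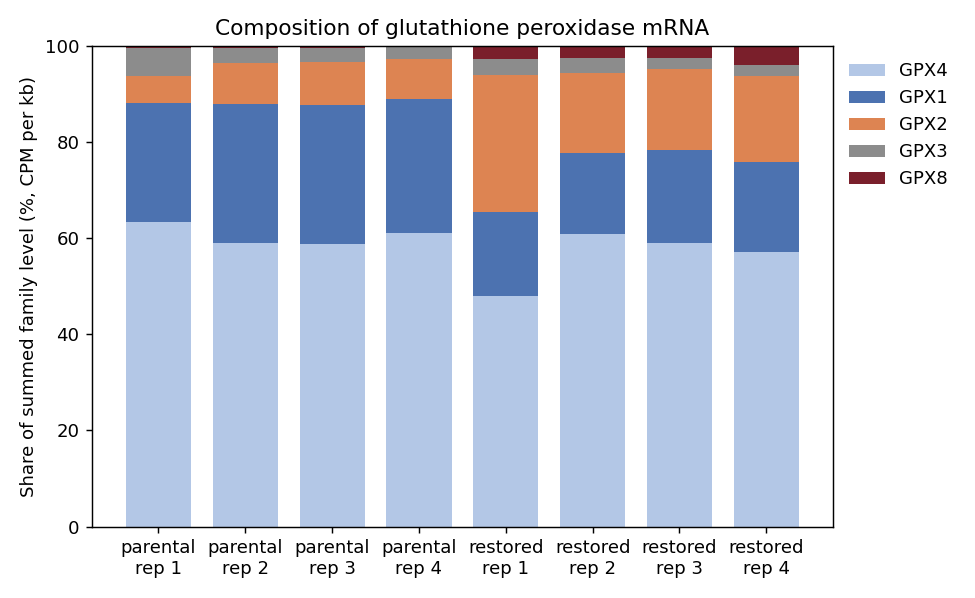
Share of each member in the summed family level (percent of CPM per kb) in each of the 8 libraries, stacked to the full sum. GPX4 is the largest block in every library, the GPX1 block is smaller in the restored-labelled libraries, and the GPX2 block reaches 28.4% in restored-labelled replicate 1.

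The difference in GPX8 was larger than that of the genes around it on chromosome 5. The 40 nearest tested genes, 20 on each side over 18.1 Mb, ran from -2.23 to 1.61 in log2 fold change around a median of 0.25. Of these 40, 29 were positive, 6 rose and 1 fell, where 10.4% of all tested genes rose and 8.77% fell. GPX8 stood 3.01 above the median of the 40. Of the 2 nearest tested genes on each side, SNX18 rose from 9.77 to 19.6 CPM. Its log2 fold change was 1.01 (SE 0.31, edgeR adjusted p = 0.0442). MCIDAS at -0.44 (adjusted p = 0.348) and CCNO at -0.35 (adjusted p = 0.34) did not pass. Beyond CCNO, DHX29 (0.69, adjusted p = 0.00838) and PLPP1 (0.57, adjusted p = 0.0268) rose. So did SLC38A9 (0.71, adjusted p = 0.0193), while MTREX (0.34, adjusted p = 0.0816) did not pass. These genes beyond CCNO all started closer to GPX8 than SNX18 did. SNX18 lost the call with total counts only and without parental replicate 2 or 4 or restored-labelled replicate 1, 3 or 4. GPX8 lies inside CDC20B, which is on the opposite strand and shares no exonic base with it. CDC20B was at 1.11 ± 0.451 and 2.60 ± 1.23 CPM (SD, n = 4 each; log2 fold change 1.20, SE 0.43, edgeR adjusted p = 0.0775). It passed without restored-labelled replicate 1 (adjusted p = 0.0231), with DESeq2 (adjusted p = 0.0494) and with no expression filter (adjusted p = 0.0395). Its counts were 6 to 23 in the parental and 29 to 85 in the restored-labelled libraries. The strand setting of the counting is not given in the sources used here, so reads from the introns of CDC20B and GPX8 transcripts extending into them cannot be told apart.

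**Figure D3:**
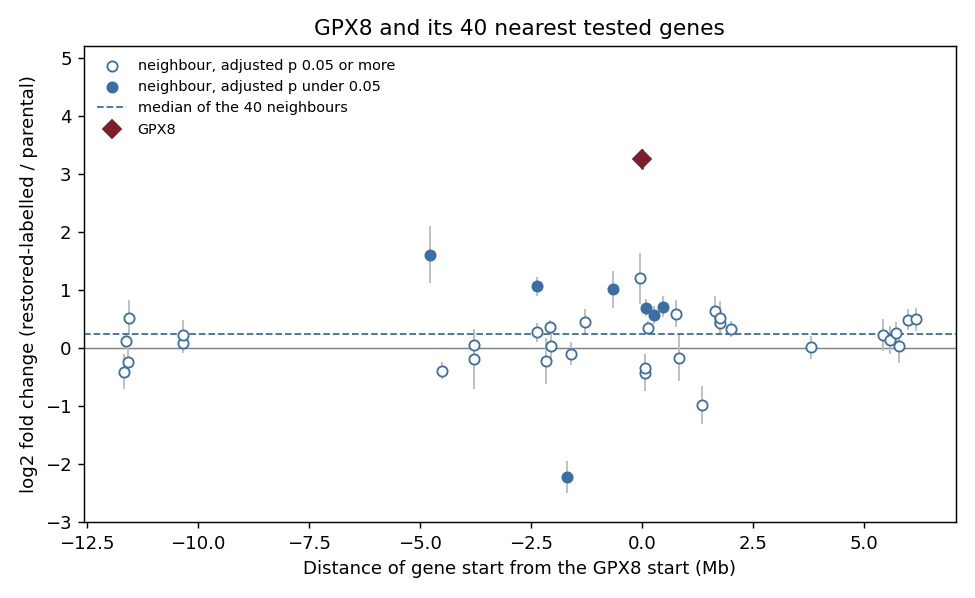
log2 fold change (restored-labelled over parental, bars are SE) of GPX8 and its 40 nearest tested genes against the distance of each gene's start from that of GPX8 in Mb. GPX8 stands at 3.25, above the neighbours, whose highest value is 1.61.

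Around GPX2 the 40 nearest tested genes centred on a log2 fold change of 0.14 (median), and by edgeR's test 6 rose and 0 fell. RAB15, a neighbour encoding a vesicle-traffic GTPase, rose from 30.4 to 54.8 CPM (log2 fold change 0.85, SE 0.15, edgeR adjusted p = 0.00408). The neighbours FNTB at 0.29 (adjusted p = 0.234) and PLEKHG3 at -0.07 (adjusted p = 0.759), which turned to 0.02 with total counts only, did not pass. GPX2 lies inside CHURC1 on the opposite strand with no shared exonic base, and CHURC1 had a log2 fold change of 0.28 (adjusted p = 0.279). Around GPX1 the median was 0.11, opposite in sign to the gene, and the nearest genes C3orf62, USP4, RHOA and TCTA ran from -0.39 to 0.18 with none past the threshold. Without parental replicate 1, USP4 passed at -0.50 (adjusted p = 0.0209) and C3orf62 turned to 0.16. The 40 genes around GPX3 had the highest median, 0.54, with 17 risen and 2 fallen, whereas GPX3 itself was at -0.29. Beside these neighbour counts, 10.4% of all tested genes rose and 8.77% fell.

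Because the study altered a component of Wnt signalling, the sequence before the start of GPX8 is shown. It comes from RefSeq on GRCh38.p14 and holds the 197 bases ahead of the first annotated exon (chr5:55159921-55160117, plus strand). Capitals mark the core CTTTGA of the TCF/LEF motif or its reverse complement.
GPX8 upstream: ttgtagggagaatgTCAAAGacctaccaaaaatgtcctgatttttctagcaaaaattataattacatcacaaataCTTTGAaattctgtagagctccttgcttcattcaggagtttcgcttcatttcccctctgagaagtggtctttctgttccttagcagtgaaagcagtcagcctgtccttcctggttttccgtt
Both strands of the 250 bases before each RefSeq start were searched. The RefSeq start of GPX8 lies 53 bases inside the gene as GENCODE 29 bounds it. From that RefSeq start, the matches in GPX8 began 236 bases (reverse complement) and 175 bases upstream. The same 6 letters were found in 3937 of 35116 promoters (11.2%). GPX2 held a match to this core and a match to TGACNNNGC, a core of the antioxidant response element read by NRF2, which was found in 3830 of the promoters (10.9%). Both were reverse complements, began 101 and 122 bases before the RefSeq start, and did not overlap. That start lies 160 bases inside the gene as GENCODE 29 bounds it, and both GPX2 matches fell within an exon of that annotation. Neither core was found in the windows of the other 6 members, and GPX8 had no match to the antioxidant core. A match of this length describes the letters and says nothing of binding.

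The genes whose profile over the 8 libraries was most like that of GPX8 were on other chromosomes. Likeness was the root-mean-square distance between log2 CPM profiles, each centred on its own mean, over 13558 genes with a mean of at least 1 CPM. This distance reuses the group difference of GPX8, so genes with a similar log2 fold change come first. The match is therefore no separate sign of shared behaviour. BDKRB2, the constitutive bradykinin receptor, was nearest at 0.18. It held 3.29, 2.37, 2.94 and 1.57 CPM in the parental and 20.9, 19.8, 27.1 and 25.2 CPM in the restored-labelled libraries. PECAM1 on chromosome 17 followed at 0.22, with 5.18 ± 0.951 and 48.2 ± 10.3 CPM (SD, n = 4 each). BDKRB1, the inducible bradykinin receptor, lies on chromosome 14 like BDKRB2 and came next at 0.25, with mean levels of 0.185 and 2.35 CPM. BDKRB1 had 1 to 3 counts in each parental library and reached the mean of 1 CPM through the restored-labelled libraries. PECAM1 is also a marker of endothelial cells. In bulk RNA, a different number of cells of a type and a different amount of RNA per cell cannot be told apart. VWF, another endothelial marker, had at most 6 counts in any library, and the part of other cells in the GPX8 difference was not tested.

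Genes that supply, accompany or parallel the peroxidases were read from 7 lists holding 113 genes, of which 98 passed the filter. By edgeR's test 7 rose and 16 fell, together 23.5% of those tested against 19.2% of all genes. The lists were chosen with earlier results of these data known, so nothing is read from that difference. The median log2 fold change of the 98 was -0.13. With total counts as the only scaling the all-gene median moved to 0.09, calls over all genes were 1724 higher and 868 lower, and the median of the lists was -0.05.

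**Figure D4:**
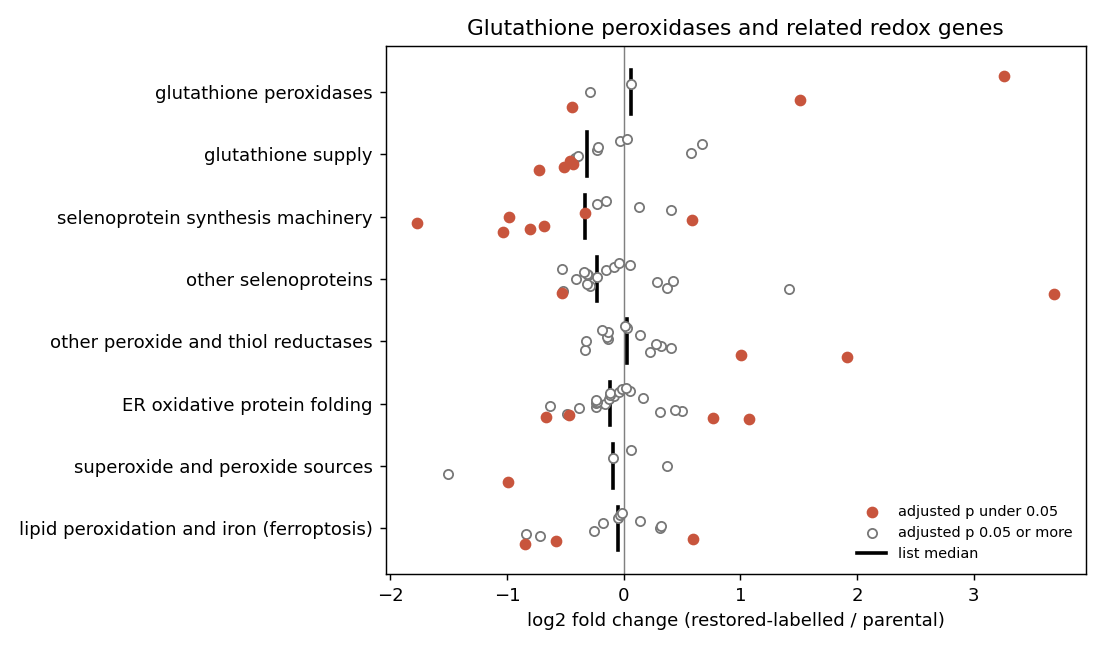
log2 fold change (restored-labelled over parental) of each tested gene in the peroxidase family and the 7 related lists, one row per list. Glutathione supply and the selenoprotein machinery lie mostly below 0, with list medians of -0.31 and -0.33, while GPX8 lies at 3.25 and DIO2 at 3.68.

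Glutathione supply, the synthesis, import and recycling of the peroxidases' electron donor, had 12 tested genes. By edgeR's test 0 rose and 4 fell (33.3%, against 19.2% of all genes), with a median log2 fold change of -0.31. GCLM, the modifier subunit of the enzyme that limits glutathione synthesis, fell from 244.4 ± 17.2 to 147.5 ± 20.0 CPM (SD, n = 4 each; log2 fold change -0.73, SE 0.13, edgeR adjusted p = 0.00371). It passed in all 17 alternatives. SLC7A11, the cystine importer, was at -0.46 (adjusted p = 0.05), the transpeptidase family member GGT7 at -0.51 (adjusted p = 0.0375) and the oxoprolinase OPLAH at -0.43 (adjusted p = 0.0437). These last 3 kept the call in 6 or 7 of 17 alternatives, and the count of the list fell to 1 with total counts only, with no expression filter and with a replicate block. Leaving out any library but parental replicate 1 or restored-labelled replicate 1 also left 1. The catalytic subunit GCLC at -0.42 (adjusted p = 0.132, or 0.0138 without parental replicate 1) and glutathione reductase GSR at -0.22 (adjusted p = 0.331) did not pass.

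The machinery that makes selenoproteins, on which GPX1 to GPX4 depend and GPX8 does not, had 11 tested genes. Of these, 1 rose and 6 fell (63.6%, against 19.2% of all genes), with a median log2 fold change of -0.33. SARS1, the seryl-tRNA synthetase that also charges the selenocysteine tRNA, fell from 239.1 ± 17.8 to 116.5 ± 27.7 CPM (SD, n = 4 each; log2 fold change -1.04, SE 0.16, edgeR adjusted p = 0.002). Its main substrate is ordinary serine tRNA. TRNAU1AP, a binding partner of the selenocysteine tRNA, fell from 25.6 ± 2.31 to 14.7 ± 1.98 CPM (log2 fold change -0.80, adjusted p = 0.00477). The elongation factor EEFSEC fell from 14.9 ± 1.57 to 9.26 ± 1.01 CPM (log2 fold change -0.69, adjusted p = 0.0133). LRP8, a receptor for selenoprotein P, fell by 1.77 on the log2 scale (SE 0.43, edgeR adjusted p = 0.0168), with restored-labelled replicate 1 at 36.3 CPM and the other 3 near 10.4 CPM. It was -2.48 without replicate 1 and lost the call without restored-labelled replicate 3 or 4. SECISBP2L, a relative of the protein that binds the selenocysteine insertion element, rose by 0.59 (adjusted p = 0.0237). It was the list's only gene called higher, and it lost the call without parental replicate 2 or restored-labelled replicate 3 or 4. Leaving out restored-labelled replicate 3 or 4 reduced the list's called genes from 7 to 3.

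Among the 19 tested genes for other selenoproteins, 1 rose and 1 fell (10.5%, against 19.2% of all genes). The median was -0.23, or -0.14 without parental replicate 3 and -0.15 with total counts only. DIO2, which activates thyroid hormone, rose from 4.61 ± 1.30 to 59.6 ± 36.6 CPM (SD, n = 4 each; log2 fold change 3.68, SE 0.64, edgeR adjusted p = 0.00351). Restored-labelled replicate 1 was at 6.17 CPM and the other 3 at 66.6 to 87.2 CPM, so the difference, unlike that of GPX8, was carried by 3 libraries. With limma-voom DIO2 did not pass (adjusted p = 0.0526). MSRB1, a methionine sulfoxide reductase, fell from 134.0 to 92.9 CPM (log2 fold change -0.53, adjusted p = 0.0137), and it lost the call without restored-labelled replicate 4. TXNRD1, the cytosolic thioredoxin reductase, was at -0.52 and just missed the threshold (adjusted p = 0.0503). It passed in 7 of 17 alternatives. Restored-labelled replicate 1 held 728 CPM of TXNRD1 and the other restored-labelled libraries 436 to 546 CPM. Without that replicate TXNRD1 was at -0.70 (edgeR adjusted p = 0.00653). DIO1, the deiodinase typical of liver, was at 1.42 (SE 0.50, adjusted p = 0.0699), with 1.27 ± 0.784 and 3.41 ± 1.17 CPM (SD, n = 4 each) and no overlap of the groups. It passed in 3 of 17 alternatives. The list's count went from 2 to 6 without restored-labelled replicate 1, to 4 without parental replicate 1 and to 1 without restored-labelled replicate 4.

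Catalase, peroxiredoxins, thioredoxins and glutaredoxins had 15 tested genes. By edgeR's test 2 rose and 0 fell (13.3%, against 19.2% of all genes), with a median of 0.03, or 0.12 with total counts only. Leaving out 1 library moved that median between -0.003 (restored-labelled replicate 2) and 0.10 (parental replicate 1). TXNIP, the inhibitor of thioredoxin, rose from 3.04 ± 0.682 to 11.4 ± 2.61 CPM (SD, n = 4 each; log2 fold change 1.92, SE 0.24, edgeR adjusted p = 0.000557). Glutaredoxin GLRX, which uses glutathione to reduce mixed disulfides, rose from 124.4 ± 26.3 to 249.3 ± 37.0 CPM (log2 fold change 1.00, adjusted p = 0.00349). Both passed in all 17 alternatives. GLRX5 at 0.22 (adjusted p = 0.202) and TXN at -0.33 (adjusted p = 0.25) did not pass.

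In ER oxidative folding, the pathway in which GPX8 works, 2 of 24 tested genes rose and 2 fell (16.7%, against 19.2% of all genes). The median was -0.12. That median was -0.01 without parental replicate 1, -0.21 without parental replicate 4 and -0.03 with total counts only. CANX, the lectin chaperone calnexin, rose from 769.2 ± 94.4 to 1621 ± 368 CPM (SD, n = 4 each; log2 fold change 1.08, SE 0.18, edgeR adjusted p = 0.00239). QSOX1, a sulfhydryl oxidase that makes disulfides and peroxide, rose from 78.7 ± 14.95 to 133.5 ± 13.9 CPM (log2 fold change 0.76, adjusted p = 0.00629). The thioredoxin-like membrane protein TMX4 fell from 43.7 ± 7.40 to 27.5 ± 1.38 CPM (log2 fold change -0.67, adjusted p = 0.0111), and the isomerase PDIA5 fell from 68.3 to 49.5 CPM (log2 fold change -0.47, adjusted p = 0.023). PDIA5 lost the call with no expression filter (adjusted p = 0.0685), with a replicate block (0.0662), without parental replicate 3 (0.0506) and without restored-labelled replicate 4 (0.0766). The tested genes of this list ran from -0.67 (TMX4) to 1.08 (CANX), below the 3.25 of GPX8.

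Of the 5 tested genes that make superoxide or peroxide, 1 fell (20%, against 19.2% of all genes). SOD2, the mitochondrial superoxide dismutase, fell from 939.1 ± 120.2 to 472.7 ± 174.9 CPM (SD, n = 4 each; log2 fold change -0.99, SE 0.23, edgeR adjusted p = 0.0134), and it lost the call without restored-labelled replicate 4. The list's called genes were 2 without parental replicate 1 or restored-labelled replicate 2. SOD1 at 0.37 (adjusted p = 0.131) and the oxidase NOX4 at -1.51 (adjusted p = 0.0985) did not pass. The subunit CYBA was at -0.09 (adjusted p = 0.806), and its sign turned without parental replicate 1 or restored-labelled replicate 4.

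The list on lipid peroxidation and iron, the setting in which GPX4 acts, had 13 tested genes. Of these, 1 rose and 2 fell (23.1%, against 19.2% of all genes). Its median was -0.05, or 0.03 with total counts only and -0.02 with no expression filter. Leaving out 1 library moved it between -0.19 (parental replicate 1) and -0.04 (parental replicate 3). HMOX1, haem oxygenase, fell from 1066 ± 69.2 to 592.1 ± 94.3 CPM (SD, n = 4 each; log2 fold change -0.85, SE 0.14, edgeR adjusted p = 0.00304). AIFM2, an oxidoreductase that protects lipids in parallel to GPX4, fell from 117.3 ± 5.79 to 78.3 ± 5.76 CPM (log2 fold change -0.58, adjusted p = 0.00448). GCH1, the entry enzyme of tetrahydrobiopterin synthesis, rose from 106.4 to 160.5 CPM (log2 fold change 0.59, adjusted p = 0.0363). It was the list's only riser, and it lost the call without parental replicate 2 or 4 or restored-labelled replicate 3 or 4 (adjusted p from 0.0603 to 0.113). Ferritin heavy chain FTH1 was at -0.72 (adjusted p = 0.111), and at -0.32 without parental replicate 1, which held 14049 CPM.

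**Figure D5:**
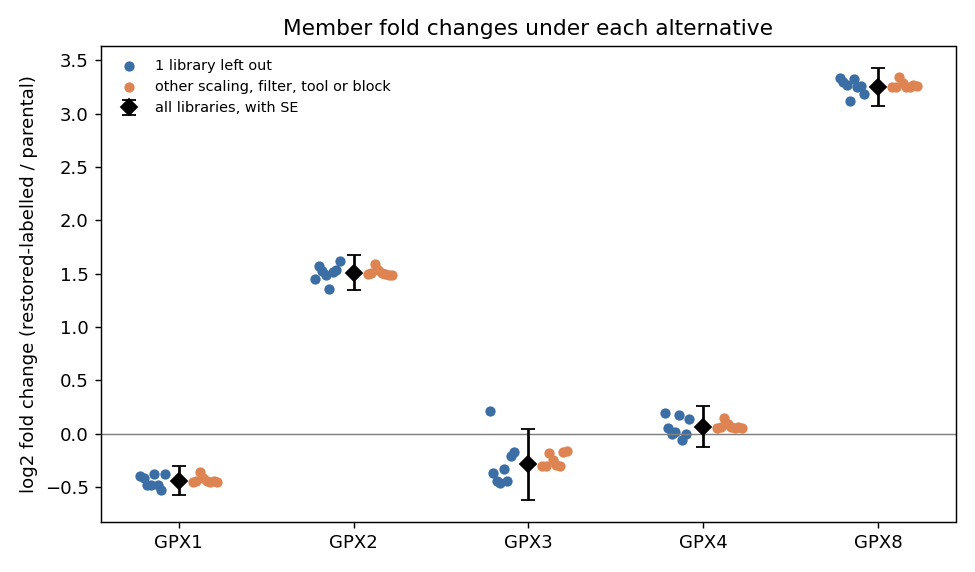
log2 fold change of the 5 filtered members with all libraries (diamonds, bars are SE) and under each alternative (points). GPX8 stays between 3.12 and 3.34, GPX2 between 1.36 and 1.62 and GPX1 between -0.53 and -0.36, while GPX3 and GPX4 cross 0.

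Across the alternatives, GPX8 ran from 3.12 without parental replicate 4 to 3.34 with total counts only, and GPX2 from 1.36 to 1.62. GPX3 and GPX4 took both signs when single libraries were left out. The spread within a group differed between members. The coefficient of variation in the restored-labelled libraries was 12.4% for GPX8, 15.7% for GPX1, 21.7% for GPX2, 23.3% for GPX4 and 25.9% for GPX3.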

How the data were processed

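The deposited table held whole-number read counts per Ensembl gene, not normalized by the authors, for 8 RNA libraries made with a KAPA mRNA kit per the labels' protocols. The submitters' processing notes name bcl2fastq, fastp 0.23.1, STAR 2.7.4 and GRCh38. The counting tool, annotation and strand setting are not given in the sources used here. Of 58206 gene IDs, 57943 matched GENCODE 29, which gave names, positions and exon lengths. The filterByExpr filter (count of at least 10, total of at least 15) and TMM scaling preceded the comparison with edgeR 4.0.16 (quasi-likelihood F test, R 4.3.3). Log2 fold changes are restored-labelled over parental, and p-values were adjusted by Benjamini-Hochberg over 14289 genes, with a threshold of 0.05. CPM used TMM-scaled totals, and log2 CPM a prior count of 2. Genes named from each list were the 4 with the smallest p. For GPX1, GPX2 and GPX8 they were also the overlapping gene and the 2 nearest tested genes on each side, and for GPX8 the 3 genes of most similar profile. SECISBP2L, GCLC, GSR and the markers were named outside this rule, after their values were seen. So were DHX29, MTREX, PLPP1 and SLC38A9, for which no alternatives are given. Members and lists were chosen with earlier results of these data known. Alternatives were other scalings, filters, DESeq2 1.42.0, limma 3.58.1 (voom), a replicate block, a threshold of 0.01 and leaving out each library. The labels do not say whether libraries of equal number belong together, so the main fit used no pairing.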

Additional observations from a re-analysis of the deposited data

Results flagged for a closer look

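Genes named by the rule above, and some others, were checked for an outlying library in each label group, 118 groups of 4 libraries. In 9 of them, a library's gap to its nearest neighbour, as a share of the group's range, exceeded the critical value of Dixon's test. Chance flags about 1 group in 20. EEFSEC was at 17.2 CPM in parental replicate 4 and at 14.0 to 14.2 CPM in the other parental libraries. LRP8 was at 36.3 CPM in restored-labelled replicate 1 and near 10.4 CPM in the other 3. CANX was at 909.7 CPM in parental replicate 3, against 709.7 to 738.8 CPM in the rest. TMX4 was at 32.8 CPM in parental replicate 1, against 46.1 to 48.8 CPM. AXIN1 was at 37.7 CPM in restored-labelled replicate 4, against 47.6 to 48.2 CPM in the other 3. Among genes beside a member, PLEKHG3 was at 36.2 CPM in restored-labelled replicate 1 against 27.6 to 27.9 CPM, CHURC1 at 57.5 CPM in restored-labelled replicate 4 against 39.5 to 40.7 CPM, and C3orf62 at 11.3 CPM in restored-labelled replicate 2 against 8.002 to 8.394 CPM. FGB, a hepatocyte marker, was at 2257 CPM in restored-labelled replicate 1 against 3452 to 3503 CPM. No glutathione peroxidase was among the 9, although GPX3 was at 120.9 CPM in parental replicate 1, against 38.7 to 53.1 CPM in the other parental libraries.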

How the results depend on the processing

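The number of genes differing between the groups (2738) was 964 at a threshold of 0.01 and 1394 to 3523 when 1 library was left out, with 1394 without restored-labelled replicate 4, 1531 without restored-labelled replicate 3, 1508 without parental replicate 2 and 3523 without parental replicate 1. Called genes over all lists (23) were 10 at that threshold and 12 to 28 when 1 library was left out, with 12 without restored-labelled replicate 4 and 15 without replicate 3. CYBA ran from -0.24 to 0.14 on the log2 scale, at 0.14 without parental replicate 1 and 0.01 without restored-labelled replicate 4. PLEKHG3 was 0.018 with total counts only, and C3orf62 ran from -0.39 to 0.16 when 1 library was left out, at 0.16 without parental replicate 1. With 10 neighbours on each side, the median was 0.28 around GPX2, 0.14 around GPX4 and 0.35 around GPX8. With a replicate block, 1101 genes were higher and 932 lower, 2033 in all, and 17 list genes were called. Same-numbered libraries correlated at -0.06 to 0.23, 1 of 4 pairs was over 0.1, and 1 of 8 libraries correlated best with its own number. The cause of these changes was not tested. For GPX5, GPX6 and GPX7, absence and expression under the limit of this depth cannot be told apart.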

Other observations

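Parental replicate 1, which held the highest GPX3 (120.9 CPM) and FTH1 (14049 CPM) levels, was also the highest of the 8 libraries for 10 of the 24 tested ER folding genes. These were noticed after their values were seen. The share of all tested genes that were highest in that library was not computed, so nothing is read from the 10 of 24. The lead over the next library ran as low as 1.10-fold, for ERP29, and was 2.39-fold for HSPA5. HSPA5, the main ER chaperone of the Hsp70 family, was at 7293, 2323, 3053 and 1511 CPM in the parental and 1728, 2760, 2340 and 2305 CPM in the restored-labelled libraries. HSP90B1, its Hsp90 counterpart, was at 4442 CPM in that library and at most 2616 CPM in the others. CALR, the lectin chaperone calreticulin, was at 4959 CPM there and at most 3424 CPM elsewhere. GPX8 was at 8.10 CPM in the same library, the highest of the parental group but within 1 CPM of replicate 2.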
